A study of Mus musculus with 6 samples.

Results

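Keratin-associated protein genes (Krtap) were measured in esophagus RNA by 46 array probes for 42 gene symbols. The probes were taken by name alone, as every non-control probe whose gene name in the scanner files starts with Krtap and a digit, out of 41174 non-control probes under 28146 gene names. Names are those of the files. For 8 of the symbols RefSeq now uses another name, given in parentheses at first mention. 1 further probe, which RefSeq assigns to a Krtap gene but which carries another name in the files, was left out by this rule.

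RNA of adult C57BL/6J mice was hybridised to 6 two-colour Agilent arrays, of which 3 bear the label wild type and 3 the label Pax9 knockout. The knockout genotype is written K5Cre;Pax9 loxp/loxp: a Cre driven by the keratin 5 promoter, active in basal cells of squamous epithelia, recombines both floxed copies of Pax9, a paired-box transcription factor. The labels name the tissue as esophagus and its epithelium, leave unsaid which exons the loxP sites flank and whether the wild-type mice carried Cre or floxed alleles. Esophagus RNA carried Cy5 throughout, and Cy3 carried a common reference mixed from mouse cell lines in culture, without a dye swap. Samples of a group are given as biological replicates with no word on the animals, and p-values therefore cover only the spread among these samples. The wild type arrays shared 1 slide and the knockout arrays the other, so slide and group cannot be told apart in any value here.

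The Pax9 probe (chr12:57811169-57811228, mm9) did not read lower on the arrays labelled knockout. Its log2 ratio of Cy5 over Cy3 was 6.28, 6.13 and 5.70 on wild type arrays 1, 2 and 3 and 6.81, 6.78 and 6.72 on knockout arrays 1, 2 and 3. The difference of 0.73 (SE 0.18) did not pass the test (limma, adjusted p = 0.071), and the groups do not overlap. In Cy5 alone Pax9 was higher on the knockout arrays, by 1.22 (SE 0.19, limma adjusted p = 0.0053). Whether this probe lies in the deleted part of the gene is not known from the labels. Whether the labels of the groups were exchanged could not be settled from the files either, and an exchange would turn every direction given here. Directions are therefore those between arrays labelled knockout and arrays labelled wild type. Markers of esophageal squamous epithelium, among them Krt4, Krt13 and Sprr3, were well above background on all 6 arrays for 7 of 7 genes.

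Keratin-associated proteins form the matrix that embeds and cross-links the hard keratin filaments of the hair shaft. They fall into high-sulfur and ultrahigh-sulfur families, rich in cysteine that forms disulfide bonds, and high glycine-tyrosine families. Their small, mostly single-exon genes lie in clusters and are switched on late in hair shaft differentiation, after the hard keratins. They are known from hair, nail and the papillae of the tongue rather than from the lining of the esophagus, a stratified squamous epithelium without hair.

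Each probe is a 60-base oligonucleotide, and related Krtap genes can be alike in sequence, so the probes behind the results are shown first. Sequences run 5′ to 3′ as the files give them, with mm9 positions. Capitals mark the longest run of bases shared with any other Krtap probe. The probes of the 4 genes that rose and of Krtap3-2, the chromosome 11 neighbour of Krtap3-3, read as follows.
Krtap3-3 (chr11:99411699-99411758): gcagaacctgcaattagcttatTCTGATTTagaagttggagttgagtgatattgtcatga
Krtap3-2 (chr11:99417555-99417614): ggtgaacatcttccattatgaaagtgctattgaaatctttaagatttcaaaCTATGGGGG
Krtap12-1 (chr10:77183876-77183935): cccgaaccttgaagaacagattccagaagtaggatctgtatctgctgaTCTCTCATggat
Krtap13-1 (chr16:88729718-88729777): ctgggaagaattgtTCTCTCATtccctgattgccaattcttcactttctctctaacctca
Krtap9-1 (chr11:99735237-99735296): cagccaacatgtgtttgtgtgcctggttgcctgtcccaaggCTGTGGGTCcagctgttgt

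These 5 probes share at most 9 bases in a row with any other Krtap probe. Over all 1035 pairs of Krtap probes the longest shared run was 17 bases, between Krtap16-10 (Krtap16-3) and 1 probe of Krtap16-9 (Krtap19-1), and no pair shared 20 or more. Transcripts of genes without a probe on the array were not compared. GC content ran from 15% to 70% with a median of 41.7%, against a median of 40% over all non-control probes.

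Of the 42 symbols, 3 had several probes: Krtap3-1, Krtap8-1 and Krtap16-9. Krtap3-1, a high-sulfur gene, had 3 probes, and Krtap16-9, of the high glycine-tyrosine type under its present name, had 2. Their sequences are shown because probes of each gene gave different readings.
Krtap3-1 (chr11:99427602-99427661): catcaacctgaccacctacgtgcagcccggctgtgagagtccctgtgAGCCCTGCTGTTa
Krtap3-1 (chr11:99427397-99427456): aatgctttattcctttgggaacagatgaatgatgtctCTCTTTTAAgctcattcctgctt
Krtap3-1 (chr11:99427481-99427540): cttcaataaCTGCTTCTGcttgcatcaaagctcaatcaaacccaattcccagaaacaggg
Krtap16-9 (chr16:88869384-88869443): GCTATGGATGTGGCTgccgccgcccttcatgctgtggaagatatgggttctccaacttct
Krtap16-9 (chr16:88869431-88869490): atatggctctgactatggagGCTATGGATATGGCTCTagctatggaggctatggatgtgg

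Krtap signal in the esophagus RNA was sparse, and the scanner program called fewer Krtap probes than probes in general. In Cy5, 20, 22 and 30 of the 46 probes were well above background on wild type arrays 1, 2 and 3, and 26, 30 and 28 on knockout arrays 1, 2 and 3. The mean was 24 ± 5.29 (SD, n = 3) on wild type and 28 ± 2 (SD, n = 3) on knockout arrays, and the groups overlap (two-sided exact permutation test, p = 0.4; 3 against 3 arrays cannot go below 0.1). The share of all probes called well above background moved with these counts, at 67.3%, 72.0% and 77.3% on wild type and 71.8%, 76.1% and 74.6% on knockout arrays, and its part in the Krtap counts was not tested. In the cell-line reference in Cy3, 23 of the 46 probes (50%) were called on all 6 arrays, against 76.7% of all probes, and 30, 27 and 32 Krtap probes were called on wild type arrays and 29, 33 and 33 on knockout arrays.

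**Figure D1:**
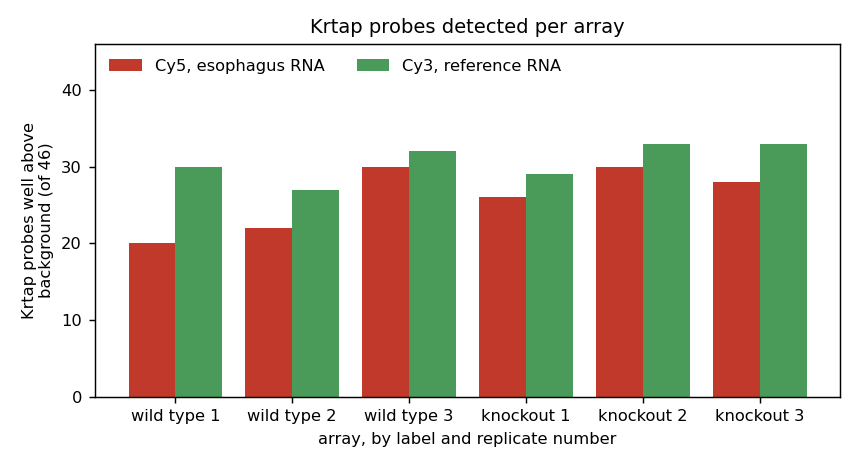
Number of the 46 Krtap probes well above background on each array (y axis) by array label and replicate number (x axis), with Cy5 for esophagus RNA and Cy3 for the reference. Cy5 counts ran from 20 to 30 on wild type and from 26 to 30 on knockout arrays, and on each array Cy3 gave more calls than Cy5.

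Across arrays, 16 of the 46 probes (34.8%) were well above background in Cy5 on all 6 arrays, against 61.9% of all probes, and 8 (17.4%) on none, against 16.2%. Another 5 probes (10.9%) were well above background on every knockout array and no wild type array, against 2.44% of all probes. These were Krtap13-1, Krtap4-7, Krtap1-5, Krtap6-2 and the Krtap3-1 probe at chr11:99427397-99427456. No Krtap probe showed the opposite pattern, which 1.52% of all probes did. The 5 probes also read higher on the knockout arrays in the Cy3 reference alone (limma adjusted p = 0.00016 to 0.0037), as did 27.9% of all tested probes. Of these 5 only Krtap13-1 passed in the ratio of Cy5 over Cy3.

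Testing required Cy5 well above background on each of the 3 arrays in either group, which kept 28 of the 46 probes. The other 18 have no test, and their background-subtracted Cy5 intensity lay between -4 and 51. Those well above background on no array were Krtap5-2, Krtap8-2 (Krtap19-5), Krtap14, Krtap16-5 (Krtap19-3), Krtap20-2, Krtap22-2, Krtap28-10 and Krtap28-13. The other 10, well above background on 1 or 2 arrays, were Krtap2-4, Krtap4-2, Krtap9-3, Krtap16-1 (Krtap19-2), Krtap16-4 (Krtap19-4), Krtap16-8 (Krtap6-5), Krtap17-1, Krtap24-1 and 1 probe each of Krtap3-1 and Krtap8-1. A probe that entered the test only through 1 group was selected on Cy5 of that group, which is part of the ratio. Counts over the 28 therefore describe those probes and not all members. Through the knockout group alone came 5 probes called on no wild type array and 3 called on 1 wild type array. Krtap3-3 and Krtap13-1 were among them. Through the wild type group alone came 2 probes called on 2 knockout arrays and 2 called on 1 knockout array.

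Of the 28 tested probes, 4 rose on the knockout arrays in the log2 ratio of Cy5 over Cy3: Krtap3-3, Krtap12-1, Krtap13-1 and Krtap9-1. This is 14.3%, against 2.39% of all tested probes (limma, Benjamini-Hochberg adjusted over 30505 probes, threshold 0.05). No Krtap probe fell, against 1.78%, and 4.18% of all tested probes passed in either direction. For the Krtap probes, 9 (32.1%) were higher and 0 lower at an unadjusted p under 0.05, against 11.9% and 11.4% of all tested probes. Among the 9, Krtap3-3, Krtap13-1, Krtap15, Krtap4-7 and Krtap26-1 entered the test through the knockout group alone, a selection toward that direction. The 24 tested probes besides the 4 that rose did not pass the test, with 13 differences above 0 and 11 below. The median difference of the 28 was 0.20, against -0.003 over all tested probes. The count of 4 was 0 without wild type array 1, without wild type array 2 or without knockout array 3, 1 without knockout array 1, and 3 without wild type array 3 or without knockout array 2. It was also 0 with arrays centred on the median in place of loess. When only the 16 Krtap probes well above background in Cy5 on all 6 arrays were tested, it was 1 (Krtap12-1).

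**Figure D2:**
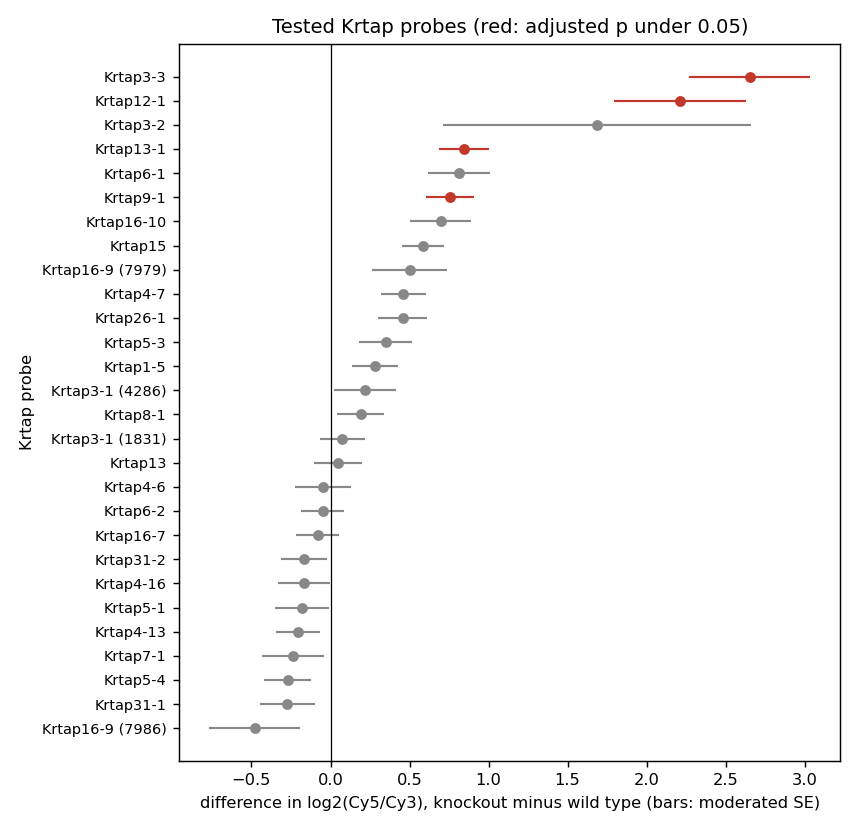
Difference in log2(Cy5/Cy3), knockout minus wild type arrays, for each of the 28 tested Krtap probes (x axis; points are differences of group means of 3 arrays, bars the moderated SE), ordered by size. Krtap3-3 at 2.65, Krtap12-1 at 2.21, Krtap13-1 at 0.85 and Krtap9-1 at 0.76, in red, passed the test, and Krtap3-2 at 1.69 with an SE of 0.98 did not.

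The high-sulfur genes held 3 of the 4 probes that rose. Of 14 high-sulfur probes 10 were tested, 3 rose, and the other 7 had differences above 0 that did not pass, with a median of 0.52 over the 10. Over all tested probes 2.39% rose. Krtap3-3, Krtap13-1, Krtap15, Krtap26-1, Krtap1-5 and the Krtap3-1 probe at chr11:99427397-99427456 entered the test through the knockout group alone. Krtap13 entered through the wild type group alone. This selection on Cy5 bears on the directions and the median of the 10. These directions were not the same in every setting: Krtap15 and Krtap1-5 lay below 0 with median centring (-0.11 and -0.27), Krtap13 in the deposited log ratio (-0.16) and in Cy5 alone (-0.44), Krtap13-1 with background-subtracted signals, and the Krtap3-1 probe at chr11:99427397-99427456 with all of these but Cy5 alone (-0.43 to -0.83). For the ultrahigh-sulfur families 8 of 12 probes were tested, 1 rose and the median was -0.11. For the high glycine-tyrosine families 7 of 15 were tested, none passed and the median was -0.05. The classes are textbook ones, were assigned after the values were seen, and leave 5 probes without a class. No difference between classes was tested.

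Krtap3-3 encodes a high-sulfur protein and had the largest difference of the 28. Its background-subtracted Cy5 intensity was 12, 8 and 23 on wild type arrays 1, 2 and 3 and 181, 294 and 627 on knockout arrays 1, 2 and 3. All 3 knockout arrays lay above all wild type arrays, and only 1 of the 3 wild type arrays read well above background. Cy3 stayed between -1 and 13 on all 6 arrays and was well above background on 1 of them. The log2 ratio was 0.44 ± 0.17 (SD, n = 3) on wild type and 3.10 ± 0.82 (SD, n = 3) on knockout arrays, a difference of 2.65 (SE 0.38, limma adjusted p = 0.021). In Cy5 alone the difference was 2.47 (SE 0.37, limma adjusted p = 0.0049). The call was lost without wild type array 1 (limma adjusted p = 0.086), wild type array 2 (0.073) or knockout array 3 (0.051), with background-subtracted signals (0.077) and with median centring (0.076), at differences of 1.80 to 2.73. Over 19 other settings the difference ran from 1.80 to 3.93. With wild type and reference signals this low, its size depends on the processing.

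Krtap3-2, whose probe lies next to that of Krtap3-3 on chromosome 11, varied widely within both groups. Its Cy5 intensity was 314, 69 and 2016 on wild type arrays 1, 2 and 3 and 2055, 668 and 1490 on knockout arrays 1, 2 and 3. Wild type array 3 read as high as the knockout arrays, so the groups overlap. The log2 ratio was 3.39 ± 2.01 (SD, n = 3) against 5.07 ± 0.98 (SD, n = 3), and the difference of 1.69 (SE 0.98) did not pass (limma adjusted p = 0.34). It was 0.62 without wild type array 2 and 2.61 without wild type array 3. Cy3 stayed between 12 and 26.

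Krtap3-1, the third member of that small chromosome 11 family on the array, gave readings that depended on the probe. At chr11:99427602-99427661, Cy5 was 1593, 1564 and 3592 on wild type and 5842, 5949 and 5159 on knockout arrays. The Cy3 reference was bright there as well, at 4421 to 4862 on wild type and 5929 to 6212 on knockout arrays, and the ratio differed by 0.22 (SE 0.20, limma adjusted p = 0.54). At chr11:99427397-99427456, Cy5 was 1, 5 and 7 against 27, 24 and 28 and Cy3 4, 2 and 0 against 23, 23 and 23, with a ratio difference of 0.08 (SE 0.14, limma adjusted p = 0.79). The third probe was not tested, with Cy5 at 3, 2 and 8 against 13, 20 and 20. No Krtap3-1 probe passed in the ratio.

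Krtap12-1, another high-sulfur gene and the only member with a probe on chromosome 10, was well above background on all 6 arrays. Its Cy5 intensity was 93, 60 and 421 on wild type arrays 1, 2 and 3 and 814, 450 and 859 on knockout arrays 1, 2 and 3. Wild type array 3 stood above the other wild type arrays and just below knockout array 2. Cy3 was 11, 7 and 60 on wild type and 7, 18 and 17 on knockout arrays. The log2 ratio was 1.89 ± 0.61 (SD, n = 3) against 4.11 ± 0.69 (SD, n = 3), with no overlap and a difference of 2.21 (SE 0.42, limma adjusted p = 0.037). In Cy5 alone it was 1.92 (SE 0.49, limma adjusted p = 0.026). The call was lost without wild type array 1 (limma adjusted p = 0.13) or 2 (0.10), without knockout array 1 (0.11) or 3 (0.16), in the deposited log ratio (2.22, 0.15), with background-subtracted signals (2.19, 0.11) and with median centring (1.61, 0.085).

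Krtap13-1, of the high-sulfur families on chromosome 16, was not well above background on any wild type array and was so on all 3 knockout arrays. Cy5 was 4, 2 and 8 on wild type and 90, 60 and 98 on knockout arrays. Cy3, which held the same reference RNA throughout, read 3, 0 and 1 on wild type and 41, 25 and 43 on knockout arrays. The log2 ratio was 0.13 ± 0.13 (SD, n = 3) against 0.98 ± 0.17 (SD, n = 3), a difference of 0.85 (SE 0.16, limma adjusted p = 0.036). With background-subtracted signals the sign turned, to -0.33 (limma adjusted p = 0.74), so no fold is given. The deposited log ratio gave 0.66 (limma adjusted p = 0.65) and median centring 0.10 (0.84). Leaving out wild type array 1 or 2 or knockout array 1 or 3 also lost the call (limma adjusted p = 0.13, 0.11, 0.10 and 0.16).

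Krtap9-1, an ultrahigh-sulfur gene of the chromosome 11 cluster, was well above background in both channels on all 6 arrays. Cy5 was 71, 104 and 191 on wild type arrays 1, 2 and 3 and 811, 732 and 812 on knockout arrays 1, 2 and 3. Cy3 was 273, 270 and 237 on wild type and 716, 744 and 735 on knockout arrays. The groups do not overlap in either channel, with a difference of 2.09 (SE 0.19, limma adjusted p = 0.0016) in Cy5 and of 1.33 (SE 0.07, limma adjusted p = 3.4e-05) in the reference. The log2 ratio was 0.42 ± 0.06 (SD, n = 3) against 1.17 ± 0.19 (SD, n = 3), a difference of 0.76 (SE 0.15, limma adjusted p = 0.045). Leaving out any 1 array lost the call (limma adjusted p = 0.056 to 0.17), and the deposited log ratio gave 0.34 (limma adjusted p = 0.51). The call was also lost with a normexp offset of 10, with background-subtracted signals and with median centring. It was lost too when only probes well above background on all 6 arrays were tested.

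**Figure D3:**
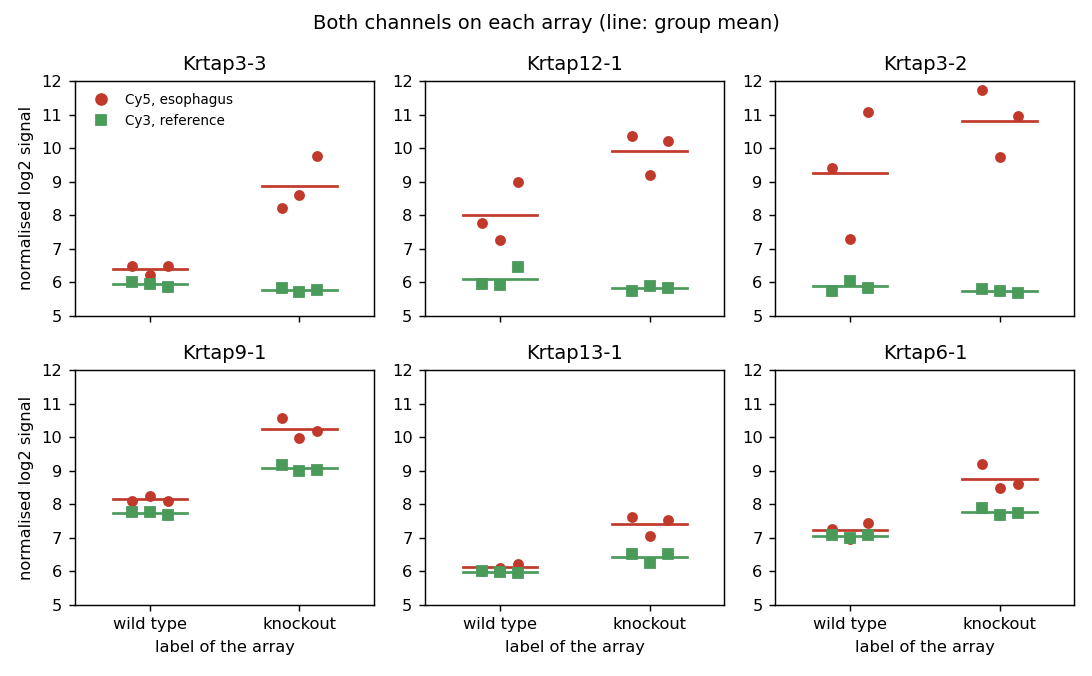
Log2 signal after loess and quantile normalization (y axis) of Cy5, esophagus RNA, and Cy3, reference RNA, on each wild type and knockout array, with a line at each group mean of 3 arrays, for Krtap3-3, Krtap12-1, Krtap3-2, Krtap9-1, Krtap13-1 and Krtap6-1. For Krtap3-3 Cy5 differed by 2.47 while Cy3 differed by -0.18, and for Krtap9-1 Cy3 differed by 1.33 as well.

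The reference channel therefore bears on how each Krtap ratio reads. The reference RNA is the same on every array by the labels, yet in Cy3 alone 27.9% of all tested probes read higher and 23.6% lower on the knockout arrays (limma, adjusted threshold 0.05). Among the 28 Krtap probes, 11 (39.3%) were higher and 8 (28.6%) lower in Cy3. In Cy5 alone 11 (39.3%) were higher and 3 (10.7%) lower, against 14.1% and 15.1% of all tested probes. Of the 14 Krtap probes that passed in Cy5, 11 (78.6%) also passed in Cy3 in the same direction, against 80.3% of all probes that passed in Cy5, so this share is near that of probes in general. The exceptions were Krtap3-3, where Cy3 differed by -0.18 (SE 0.06, limma adjusted p = 0.042), Krtap12-1 at -0.29 (SE 0.14, 0.12) and Krtap26-1 at 0.08 (0.29). Over the 28 probes, differences in Cy5 and Cy3 correlated at r = 0.60 (Spearman 0.65), a description of probes that share arrays, slides and, for some, a gene. Ratio and Cy3 differences correlated at r = 0.04 (Spearman 0.31), and GC content and Cy3 differences at r = 0.19 (Spearman 0.17).

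**Figure D4:**
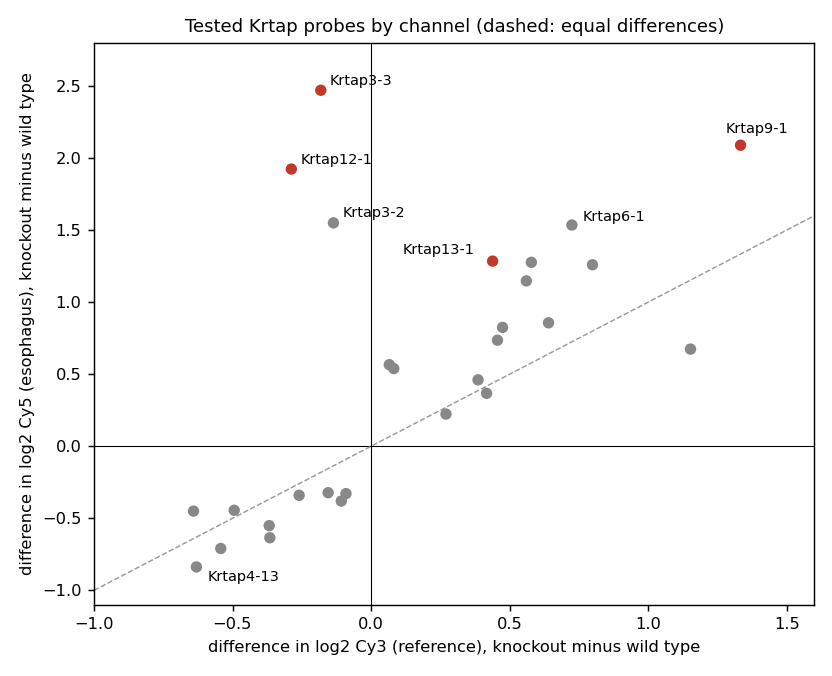
Difference between knockout and wild type arrays in log2 Cy5, esophagus RNA (y axis), against that in log2 Cy3, reference RNA (x axis), for the 28 tested Krtap probes, with a dashed line where both are equal and in red the probes that passed in the ratio. Krtap3-3, Krtap12-1 and Krtap3-2 lie at 2.47, 1.92 and 1.55 in Cy5 with Cy3 below 0, whereas Krtap9-1 lies at 2.09 in Cy5 and 1.33 in Cy3.

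Several further high-sulfur genes were brighter in Cy5 on the knockout arrays without passing in the ratio. Krtap15 read 8, 7 and 21 on wild type and 65, 82 and 89 on knockout arrays in Cy5, and 35, 29 and 36 against 92, 98 and 96 in Cy3. Its ratio difference was 0.59 (SE 0.13, limma adjusted p = 0.057), and the groups do not overlap. Krtap26-1 read 9, 10 and 30 against 53, 38 and 62 in Cy5, with 24, 23 and 30 against 34, 28 and 30 in Cy3 and a ratio difference of 0.46 (SE 0.15, limma adjusted p = 0.14).

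Krtap1-5 was at -3, 3 and 0 in Cy5 on wild type arrays and at 35, 31 and 36 on knockout arrays. Its reference signal was 38, 47 and 37 against 94, 89 and 81, and the ratio difference was 0.28 (SE 0.15, limma adjusted p = 0.30). This difference passed with background-subtracted signals (2.59, limma adjusted p = 0.050) and in the deposited log ratio (1.68, 0.038), and was -0.27 with median centring. Krtap13, whose probe lies near that of Krtap13-1, did not share its pattern: Cy5 was 20, 26 and 56 against 4, 46 and 24, Cy3 110, 111 and 108 against 15, 101 and 35, and the ratio difference 0.05 (SE 0.15).

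Among the other ultrahigh-sulfur genes, Krtap4-7 was well above background in Cy5 on the knockout arrays alone. It read 2, 4 and 15 against 96, 78 and 107 in Cy5 and 19, 14 and 21 against 96, 92 and 118 in Cy3, with a ratio difference of 0.46 (SE 0.14, limma adjusted p = 0.12). Krtap4-13 went the other way in both channels, from 38, 38 and 71 to 14, 14 and 14 in Cy5 and from 82, 82 and 78 to 13, 14 and 14 in Cy3. Its ratio difference was -0.21 (SE 0.14, limma adjusted p = 0.41), while Cy5 alone differed by -0.84 (limma adjusted p = 0.0087).

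Krtap4-6 was bright in both channels, at 56626 to 63962 on wild type and 73868 to 144582 on knockout arrays in Cy5 and 73197 to 109335 over all arrays in Cy3. Its ratio differed by -0.05 (SE 0.18), and the groups overlap. After normalization between arrays, its Cy5 alone differed by 0.22 (limma adjusted p = 0.55), also with overlap. Krtap4-16 differed by -0.17 (SE 0.16) in the ratio. These values show members of the Krtap4 family with opposite readings in Cy5 and none past the test in the ratio.

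The 3 tested Krtap5 genes, ultrahigh-sulfur genes on chromosome 7, were well above background on all 6 arrays. Krtap5-4 read 248, 235 and 544 against 209, 274 and 300 in Cy5, with a ratio difference of -0.27 (SE 0.15) and -0.63 (limma adjusted p = 0.029) in Cy5 alone. Krtap5-3 differed by 0.35 (SE 0.17) and Krtap5-1 by -0.18 (SE 0.17) in the ratio. None passed in the ratio.

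The high glycine-tyrosine genes of chromosome 16 gave no probe past the test. Krtap6-1 came nearest, at 34, 30 and 101 on wild type and 312, 225 and 229 on knockout arrays in Cy5, and 119, 99 and 119 against 244, 240 and 236 in Cy3. Its ratio difference was 0.81 (SE 0.20, limma adjusted p = 0.067), and 0.049 was the adjusted p with replicate number as a block. Krtap6-2 read 6, 10 and 15 against 36, 33 and 21 in Cy5 and 35, 33 and 28 against 64, 67 and 66 in Cy3, so that its ratio differed by -0.05 (SE 0.14).

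The Krtap16-9 probes differed from each other in the sign of the ratio difference, neither past the test. At chr16:88869384-88869443 Cy5 was 1063, 1125 and 904 against 1720, 2613 and 2668, Cy3 805, 986 and 500 against 1155, 1775 and 1514, and the difference -0.48 (SE 0.29, limma adjusted p = 0.36). At chr16:88869431-88869490 Cy5 was 26, 34 and 62 against 129, 64 and 80, Cy3 18, 23 and 21 against 28, 27 and 24, and the difference 0.50 (SE 0.24, limma adjusted p = 0.26). Both probes were higher in Cy5 on each knockout array than on any wild type array.

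Krtap8-1, Krtap7-1 and Krtap16-7 (Krtap21-1) differed by 0.19 (SE 0.15), -0.24 (SE 0.20) and -0.08 (SE 0.14) in the ratio. For Krtap8-1 Cy5 was 49, 58 and 115 against 42, 79 and 53, and Cy3 110, 137 and 100 against 19, 56 and 32. In Cy5 alone it differed by -0.45 (limma adjusted p = 0.066) and in Cy3 alone by -0.64 (0.0017). Krtap16-10, without a class here, read 41, 49 and 89 against 282, 190 and 212 in Cy5 and 92, 87 and 87 against 182, 174 and 176 in Cy3. Its ratio difference was 0.70 (SE 0.19, limma adjusted p = 0.089) with no overlap of groups. Krtap31-1 and Krtap31-2 differed by -0.27 (SE 0.18) and -0.17 (SE 0.15), and Krtap31-2 passed as lower in Cy5 alone (-0.71, limma adjusted p = 0.021).

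Over the 28 probes, the groups did not overlap in the ratio for 13 (46.4%) that were higher on knockout arrays, against 15.5% of all tested probes, and for 2 (7.14%) that were lower, against 14.9%. Among the 13, Krtap3-3, Krtap13-1, Krtap15, Krtap4-7, Krtap26-1 and Krtap1-5 entered the test through the knockout group alone, a selection toward that direction. Krtap4-13, lower, entered through the wild type group alone. The 13 also include a Krtap8-1 probe that was lower in Cy5 on knockout arrays (-0.45) and lower still in Cy3 (-0.64). By position, the chromosome 16 cluster (88611474 to 89508568, mm9) held 22 probes, 12 of them tested, with 1 rise and a median difference of 0.32. The chromosome 11 cluster (99411699 to 99854715) held 17, with 12 tested, 2 rises and a median of 0.15. On chromosome 7, 3 of 4 probes were tested, with no call and a median of -0.18, and the 2 probes on chromosome 1 were not tested.

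Promoter sequence was compared because the 3 Krtap3 genes are neighbours with different readings. RefSeq promoters (GRCm38.p6) were given for 38 of the genes with a probe, and the 60 bases before the transcription start were searched for TATANAA, a form of the TATA box to which the TATA-binding protein binds. The motif was chosen after the sequences were seen, so its shares describe these promoters and are not a test. It was present on the gene's strand in 29 of the 38 (76.3%), against 2.74% of 27025 genes, and on either strand in 29 (76.3%) against 3.69%. The stretches before the Krtap3 genes and Krtap13-1 are shown on the gene's strand with the motif in capitals.
Krtap3-1 (chr11:99566631-99566690, minus strand): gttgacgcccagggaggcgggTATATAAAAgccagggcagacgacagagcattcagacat
Krtap3-2 (chr11:99556854-99556913, minus strand): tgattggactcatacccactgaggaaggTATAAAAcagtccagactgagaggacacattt
Krtap3-3 (chr11:99550864-99550923, minus strand): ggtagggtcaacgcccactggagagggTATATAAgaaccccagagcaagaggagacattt
Krtap13-1 (chr16:88728802-88728861, plus strand): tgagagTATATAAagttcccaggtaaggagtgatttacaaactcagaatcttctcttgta

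The motif begins 39, 32 and 33 bases before the start of Krtap3-1, Krtap3-2 and Krtap3-3 and 54 bases before that of Krtap13-1. All 4 promoters shown hold it, whatever the reading of their gene on these arrays. No promoter was given for Krtap12-1 or Krtap9-1, which rose as well. A match is a description of the letters and was not tested as a site.

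Hard keratins are the filament proteins that keratin-associated proteins cross-link. Of the 12 tested, out of 16 listed, 4 rose and none fell, against 2.39% and 1.78% of all tested probes, with a median difference of 0.62. In Cy5 alone 7 were higher and 3 lower, against 14.1% and 15.1% of all tested probes. The 3 were Krt34 (-0.96, limma adjusted p = 0.016), Krt82 (-1.16, 0.033) and Krt84 (-0.86, 0.045), none past the test in the ratio. Krt34 read 32, 33 and 117 on wild type and 10, 9 and 8 on knockout arrays in Cy5, and 77, 72 and 77 against 9, 9 and 14 in Cy3. The list was chosen with results of these arrays known, so its direction is not independent evidence. The type I genes among them have probes at chr11:99872578 to 99963636, directly beside the chromosome 11 Krtap cluster.

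Krt35, a hard keratin of the hair matrix and cortex, had Cy5 at 54, 35 and 135 on wild type and 1367, 2502 and 2873 on knockout arrays, and a ratio difference of 3.74 (SE 0.28, limma adjusted p = 0.0038). Krt36 differed by 2.01 (SE 0.18, 0.0076), with Cy5 at 41, 32 and 104 against 443, 431 and 484, and lost the call without knockout array 3 (0.054). Krt33a read 5, 3 and 9 against 102, 174 and 183 in Cy5 and was not well above background on wild type arrays. Its wild type level is therefore only a bound and no fold is given. The fit called it higher (limma adjusted p = 0.012), a call that was lost without wild type array 1 (0.065) or 2 (0.051), without knockout array 3 (0.065) and with median centring (0.17).

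Krt32, known from the hair cuticle, differed by 2.71 (SE 0.51, limma adjusted p = 0.037). Its Cy5 intensity was 800, 216 and 1436 on wild type and 51196, 54089 and 68977 on knockout arrays, and Cy3 moved with it, from 56, 28 and 65 to 775, 992 and 1141. The call was lost without wild type array 1 or 3 or any 1 knockout array (limma adjusted p = 0.060 to 0.14) and in the deposited log ratio (0.85, 0.36). Krt82, also of the hair cuticle, lay the other way at -1.14 (SE 0.36, limma adjusted p = 0.12), with Cy5 at 111, 36 and 172 against 24, 13 and 24, and had an adjusted p of 0.040 with the replicate block. Krt33b at 0.79 and Krt83 (Krt87) at 0.82 did not pass (limma adjusted p = 0.087 and 0.062) and did with the block (0.039 and 0.047).

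**Figure D5:**
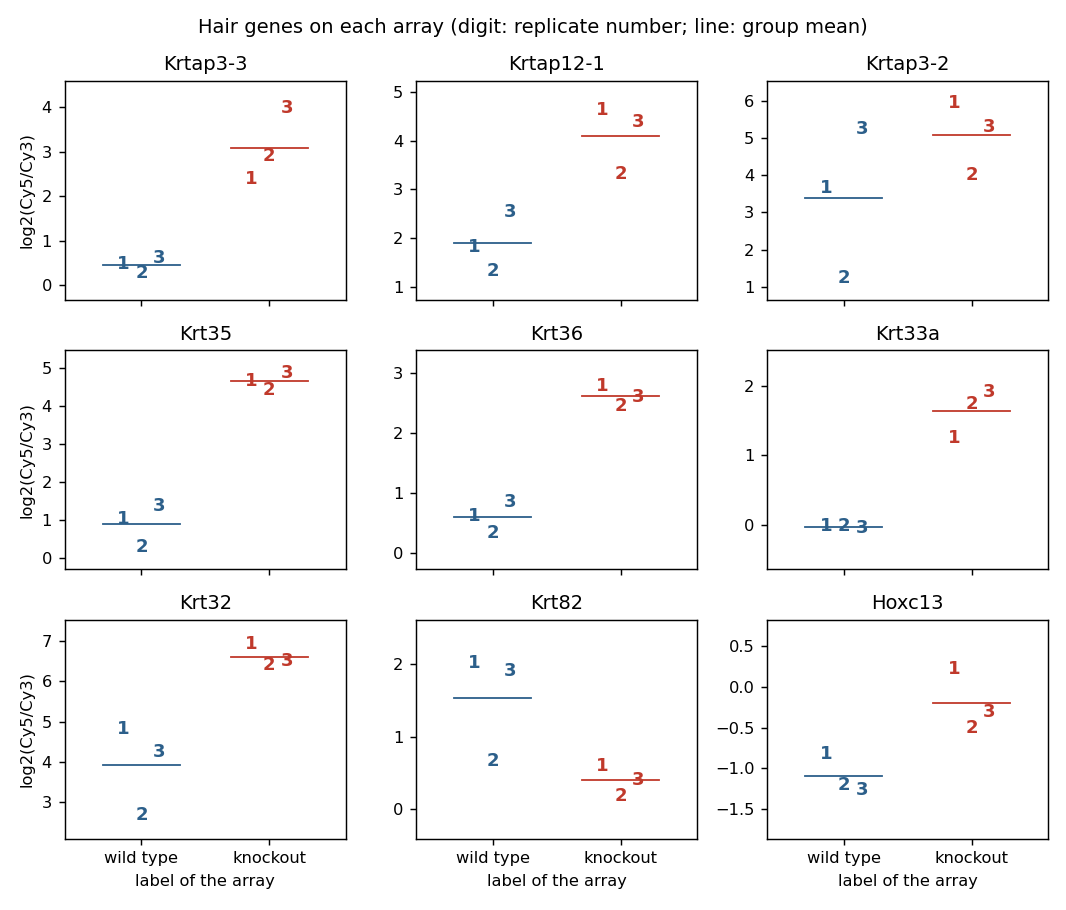
Log2(Cy5/Cy3) on each wild type and knockout array (y axis; digits are replicate numbers, lines group means of 3 arrays) for 3 Krtap genes, the hard keratins Krt35, Krt36, Krt33a, Krt32 and Krt82, and Hoxc13. Krt35 went from between 0.30 and 1.37 to between 4.41 and 4.85, while Krtap3-2 on wild type array 3, at 5.24, lay among the knockout values.

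Among 8 further hair shaft genes 5 were tested, 4 differences lay above 0, and 1 rose, against 2.39% of all tested probes. This was Selenbp1, a selenium-binding protein, at 2.17 (SE 0.21, limma adjusted p = 0.0083), lost without knockout array 3 (0.054). Its Cy5 intensity was already 5392 to 20474 on wild type arrays, against 82365 to 90166 on knockout arrays. The cell-line reference was bright there too, with Cy3 at 12080 to 13918 over all arrays. Gprc5d, a receptor of the hair cortex, at 0.92 (0.054), and Padi1, a peptidylarginine deiminase, at 0.92 (0.090) did not pass and did with the replicate block (0.035 and 0.048). Of the 10 inner root sheath genes, keratins and trichohyalin of the sheath around the growing hair, 4 were tested, none passed, and the smallest p belonged to Krt27 (-0.44), Krt71 (0.38) and Tchh (-0.63).

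Of 10 regulators of hair differentiation, all tested, none rose and 2 fell, against 2.39% and 1.78% of all tested probes. Hoxc13, a homeobox factor known to activate hair keratin and Krtap genes, read 7, 3 and 17 in Cy5 on wild type and 105, 62 and 81 on knockout arrays, with Cy3 at 193, 178 and 177 against 214, 228 and 242. Its difference of 0.90 (SE 0.23) did not pass (limma adjusted p = 0.074) and did with the replicate block (0.028). Gata3, a zinc-finger factor of the inner root sheath and epidermis, fell by 3.54 on the log2 scale (SE 0.50, limma adjusted p = 0.020), with Cy5 at 726, 1087 and 647 against 59, 23 and 27. The call was lost without wild type array 1 or 2 or knockout array 1 or 3 (limma adjusted p = 0.054 to 0.11). Dlx3, a homeobox factor of hair and epidermis, fell by 1.04 (SE 0.19, limma adjusted p = 0.033), which was lost on leaving out any 1 array (0.061 to 0.12) and in the deposited log ratio (-0.37, 0.73). Foxn1 differed by -0.16.

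The samples are bulk RNA of the esophagus, so fewer cells of a type and less RNA per cell cannot be told apart. Markers of hair follicle, skin and muscle cells were read beside the Krtap genes, and their part in the Krtap values was not tested. Their counts stand against 2.39% higher and 1.78% lower over all tested probes. Sums are of background-subtracted Cy5 signals, not normalized between arrays. The median of that signal over all probes ran from 56.0 to 159 on wild type and from 97.5 to 133 on knockout arrays. For the outer root sheath 6 of 6 markers were tested and none passed, with summed Cy5 intensities of 61850 to 273500 on wild type and 262000 to 380500 on knockout arrays. Krt15 carried most of that sum, at 50139 to 220619 and 239815 to 343786, and its ratio differed by 0.07. Lhx2 and Lgr5 read between 9 and 143 over all arrays. For hair bulb melanocytes 4 of 6 were tested and none passed, Tyr was well above background on no array, and sums were 208 to 471 and 217 to 376. For the dermal papilla 2 of 4 were tested, none passed, and sums were 350 to 1575 and 496 to 897. Sebaceous gland markers had 2 of 5 tested and 1 lower, Scd3 at -1.32 (SE 0.15, limma adjusted p = 0.011), with sums of 6777 to 11870 and 19820 to 23420. Cidea carried nearly all of that sum, at 6612 to 11695 and 19765 to 23357, and its ratio differed by -0.03. Epidermal markers had 5 of 5 tested and 1 lower, Krt1 at -5.28 (SE 0.54, limma adjusted p = 0.0088), with sums of 1212000 to 1779000 and 589000 to 678800, and Krt10 at -2.31 also passed with the replicate block (0.032). Lor carried most of the knockout sums, at 575781 to 607889, and its ratio differed by -0.08. In Cy5 Krt1 read 257592 to 493207 on wild type and 452 to 1958 on knockout arrays, and Krt10 421270 to 477360 and 3833 to 22362. The Cy3 reference was lower there as well, at 3886 to 3946 and 242 to 294 for Krt1 and 8534 to 15792 and 1000 to 1340 for Krt10. Skeletal muscle markers had 7 of 7 tested and 1 higher, Myh2 at 1.63 (SE 0.32, limma adjusted p = 0.040), and with the replicate block Tnnt3 at 1.28 (0.045) and Mylpf at 1.47 (0.039) passed as well. Their sums were 18300, 204500 and 46980 on wild type arrays 1, 2 and 3 and 99410, 1145000 and 157100 on knockout arrays 1, 2 and 3, higher on the knockout array of each number. The 7 markers of esophageal squamous epithelium had no call in the ratio and a median difference of -0.16, with sums of 676000 to 1785000 and 1293000 to 1588000. Among them Krt14 alone passed in Cy5 alone, as lower on the knockout arrays (-1.25, limma adjusted p = 0.0037). It was also lower in Cy3 alone (-1.59, limma adjusted p = 0.0013).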

How the data were processed

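Scanner files deposited by the authors hold linear intensity readings of 45018 spots on each array. Per the file headers, the array design is 014868, the probe positions are on mm9 and Agilent Feature Extraction was version 10.7.3.1 (9.1 in the submitters' processing notes). They also carry the program's log10 ratio of Cy5 over Cy3, per the file headers. The series matrix, also deposited, has log2 values whose columns correlated at -0.993 to -0.996 with the matching scanner ratios, so its sign was turned. Its column medians were 0.013, -0.008, -0.024, 0.008, 0.002 and 0.012, and its centring is unknown. Single intensities in the text are the program's background-subtracted signals and are not normalized between arrays. In Cy5 the median of this signal over all probes was 56.0, 72.7 and 159 on wild type arrays 1, 2 and 3. It was 97.5, 133 and 124 on knockout arrays 1, 2 and 3.

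From the mean and background signals, background correction used normexp (offset 50), followed by loess within arrays with weight 0 for control spots. Outlier spots, 55 to 164 per array and none of them a Krtap spot, were left out, saturation was absent, and spots of a probe were averaged. Probes were tested if well above background in Cy5 on all 3 arrays of at least 1 group (30505 of 41174). Differences were fitted in R 4.3.3 by lmFit and eBayes of limma 3.58.1 (two-sided, Benjamini-Hochberg over tested probes, threshold 0.05), and the procedure was tested on simulated data. Cy5 alone and Cy3 alone are signals after loess and quantile normalization of the average intensity. The Cy3 fit was added after the data were seen. The number of arrays limits the precision.

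The Krtap members, the hair gene lists and the markers were chosen with earlier results of these data known. The rule for named genes took every tested Krtap probe, members of the hair lists past the threshold and the 3 with the smallest p in each list. It also grouped Krtap genes by the composition of their proteins. Protein sequences were not used here, so textbook classes and chromosome clusters replace that grouping. Of the 46 names, 43 were matched to RefSeq by accession and 2 by name, and 1 kept the name of the files.

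Replicate numbers are shared by the groups. Same-numbered arrays deviated together from their group means, at correlations of 0.167, 0.509 and 0.342 over probes, all above 0.1, which meets the rule for pairing. The fit reported has no block, and the fit with replicate number as a block is printed beside a result where it changes the call. Other pairs lay between -0.487 and 0.163. The numbers also follow the position on the slide (2, 3 and 4), and pairing and position cannot be separated. Alternatives tried were background correction, deposited ratios, centring, Cy5 alone, the filter, variance and weight settings, the block and left-out arrays.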

Additional observations from a re-analysis of the deposited data

How the results depend on the processing

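The count of 4 Krtap probes that rose was 1 with background-subtracted signals (Krtap1-5, none of the 4), 2 in the deposited log ratio and 2 in the series matrix (Krtap1-5 and Krtap3-3), 0 with median centring, 11 in Cy5 alone, 1 (Krtap12-1) when only the 16 probes well above background on all 6 arrays were tested and 7 with array weights. It was 0 to 3 over the fits that left out an array or a replicate number. With a normexp offset of 10 it stayed at 4, but Krtap15 took the place of Krtap9-1. The count of 0 that fell was 3 in Cy5 alone and stayed at 0 in the other settings, left-out arrays included. Krtap13-1 turned to -0.33 with background-subtracted signals. The 7 calls in the hair gene lists became 17 in Cy5 alone and 12 with array weights, and 0 to 8 with an array or replicate number left out. The difference of 4 detected probes between the groups was 1 by the program's other detection flag, 3 by symbol and 2 to 7 with an array left out. The causes were not tested.

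With replicate number as a block, the pairing gave 5 Krtap probes that rose, by adding Krtap6-1, and 13 calls in the hair gene lists. Over all tested probes it gave 2254 calls in place of 1274. All 4 Krtap probes that rose without the block also passed with it.

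Over all tested probes the calls were 139 with median centring, which moved the median difference of all probes to 0.07, and 714 and 727 in the deposited values. They were 1629 with no filter on dim probes, 699 with that on all 6 arrays, 3894 with array weights, 8909 in Cy5 alone, 69 without wild type array 1, 179 without wild type array 2, 327 without knockout array 1, 38 without knockout array 3, 845 without knockout array 2 and 0 without replicate number 1. Of the calls 57.3% were higher in the fit reported, 48.3% in Cy5 alone, 64.0% with median centring, 45.6% without wild type array 3 and 70.3% without knockout array 2. By signal, 30 of the 46 Krtap probes were not well above background in Cy5 on at least 1 array.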
